A study of Drosophila melanogaster with 4 samples.

Results

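Small RNAs bound by the Argonaute protein Ago1 were compared between whole male flies aged 30 d and 3 d, through 1 immunoprecipitated library at each age. The comparison was made one distinct sequence at a time, so that the lengths, 3' ends and 5' starts of a miRNA were kept apart. Both libraries were chosen by their labels, as the 2 Ago1 libraries of a series of 4. The other 2 libraries hold small RNAs bound by Ago2 at 30 d and 3 d and are quoted only beside an Ago1 value. All flies were Drosophila melanogaster males that carried a FLAG-HA tag on Ago2 and were kept at 25 °C, at 3 d as at 30 d. Ago1 was captured with an antibody against the untagged protein, and Ago2 through its FLAG tag. With 1 library per group, a difference has no replicate check, no test was made, and age cannot be told apart from the library.

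Ago1 is the main miRNA-binding Argonaute of flies. It holds a strand of the miRNA duplex and finds target mRNAs mostly through the seed, the bases 2 to 8 from the 5' end. A shift of the 5' start therefore gives another seed, whereas a change at the 3' end leaves the seed as it is. In flies the exonuclease Nibbler is known to shorten the 3' ends of some miRNAs after they have been loaded into Ago1, and miR-34-5p is its best-known substrate. Strands bound by Ago2 carry a methyl group on the 3' end, which is known to protect them from trimming and tailing.

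The main forms that the results below turn on are shown first, from 5' to 3', with T for U and with the seed in capitals. The names are background knowledge and were not read from the files. The first 3 come from the hairpin cluster of miR-277, miR-34 and miR-317. The next 7, which end with miR-34-3p of the same cluster, are further arms described below for their 3' ends. Each had a mean length lower by 0.25 nt or more at 30 d.
miR-277-3p: tAAATGCActatctggtacgac
miR-34-5p: tGGCAGTGtggttagctggtt
miR-317-3p: tGAACACAgctggtggtatcc
miR-305-3p: cGGCACATgttgaagtacactca
miR-305-5p: aTTGTACTtcatcaggtgctc
miR-316-5p: tGTCTTTTtccgcttactggcg
miR-957-3p: tGAAACCGtccaaaactgaggc
miR-1010-3p: tTTCACCTatcgttccatttg
miR-1000-5p: aTATTGTCctgtcacagcag
miR-34-3p: cAGCCACTatcttcactgccgcc
The 3 members of the miR-9 family are shown because they have the same seed but were longer, not shorter, at 30 d.
miR-9a-5p: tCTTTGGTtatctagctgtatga
miR-9b-5p: tCTTTGGTgattttagctgtat
miR-9c-5p: tCTTTGGTattctagctgtag

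The 30 d library listed 26451651 reads in 3868 distinct sequences, and the 3 d library listed 26636441 reads in 4278. Levels are in RPM, the reads of a sequence for every 1000000 reads that its library lists. Of 5113 distinct sequences seen in either Ago1 library, 529 had a mean of at least 10 RPM over both and were compared. The least abundant of them had a mean of 10.03 RPM and the next sequence below had 9.998 RPM. The 529 sequences held 99.7% of the reads at 30 d and 99.7% at 3 d. A mean of 10 RPM is about 265 reads at 30 d and 266 reads at 3 d, and a sequence with no read could still have had up to 0.113 RPM in either library. Named arms held 99.4% of the reads at 30 d and 99.4% at 3 d. Sequences that overlap exactly were joined into arms, each standing for a hairpin strand and its end variants, and arms without a name carry a letter. Intervals are at the 95% level and cover counting error only, since reads copied from the same molecule by PCR were not marked.

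Most sequences were within 2-fold between the ages, and the calls past 2-fold differed by length. Log2 ratios are of 30 d over 3 d, with 1 RPM added to both values. The median over the 529 sequences was -0.0099, with quartiles of -0.51 and 0.52. At 30 d, 60 sequences (11.3%) were higher by 2-fold or more, and 71 (13.4%) were lower by as much. Among the 150 sequences of 16 to 20 nt, 42 were higher and 15 lower, with a median log2 ratio of 0.48. Among the 138 sequences of 23 nt or more, 5 were higher and 25 lower, with a median of -0.23. The 241 sequences of 21 and 22 nt lay between, with 13 higher, 31 lower and a median of -0.03.

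**Figure D1:**
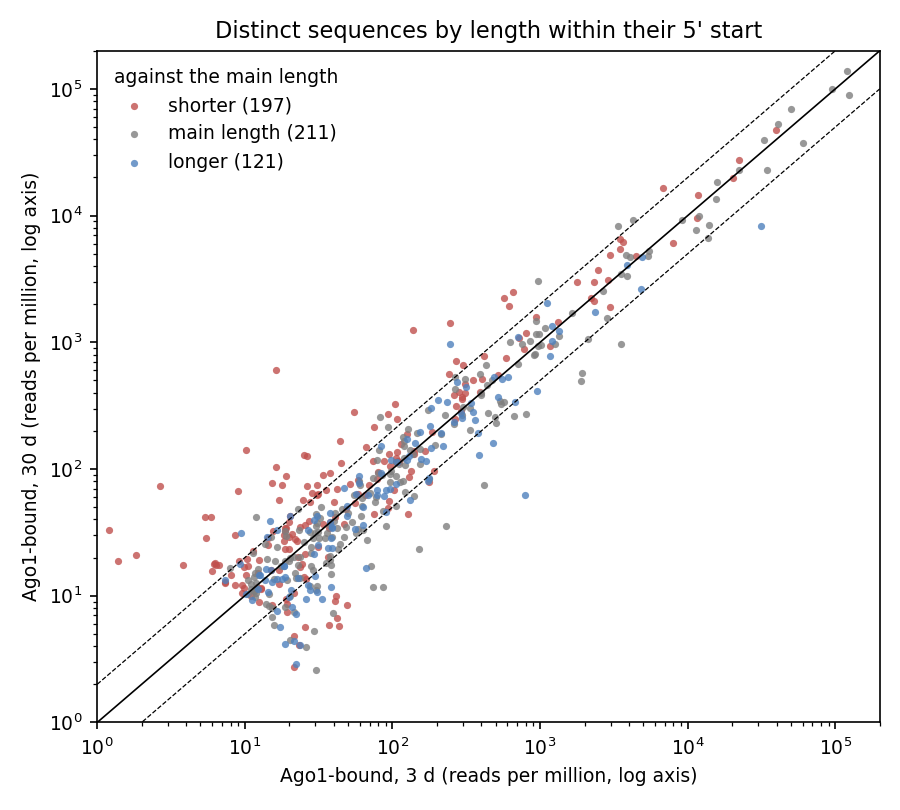
Each point is a distinct sequence with a mean of at least 10 RPM, with its RPM bound by Ago1 at 30 d on the vertical axis and at 3 d on the horizontal axis, both on log scales; the solid line marks equality and the dashed lines a 2-fold difference. Of the 60 sequences at least 2-fold higher at 30 d, 49 are shorter than the main length of their 5' start. Such shorter forms are 197 of all 529 sequences, and 14 of the 197 are at least 2-fold lower.

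The 10 most abundant sequences, which are forms of 7 arms, all stayed within 2-fold. The 23 nt form of miR-8-3p, a regulator of fat body insulin signalling, had 139122 RPM at 30 d and 119179 RPM at 3 d. The 22 nt form of miR-184-3p, known from the female germline, had 89574 RPM at 30 d and 123325 RPM at 3 d. miR-956-3p supplied 3 of the 10. Its 23 nt form had 100577 RPM at 30 d and 95443 RPM at 3 d, and its 22 nt form had 47743 RPM at 30 d and 39797 RPM at 3 d. The 22 nt form of miR-956-3p that starts 1 nt downstream had 39315 RPM at 30 d and 32859 RPM at 3 d. All 3 forms of this arm were higher at 30 d by log2 ratios of 0.08 to 0.26. The 22 nt form of miR-277-3p, a regulator of branched-chain amino acid breakdown, had 68837 RPM at 30 d and 49907 RPM at 3 d. The 23 nt form of bantam-3p, which promotes growth and blocks cell death, had 37378 RPM at 30 d and 60344 RPM at 3 d, the lowest ratio of the 10 at -0.69. The 24 nt form of miR-263a-5p, which protects sensory bristles, had 23016 RPM at 30 d and 34385 RPM at 3 d. Forms of miR-281-2-5p of 23 nt and 22 nt were higher at 30 d, with log2 ratios of 0.37 and 0.30.

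All of the 10 sequences with the highest ratios were shorter than the main form of their 5' start, and 9 of them were 18 to 21 nt forms of named arms at the most abundant start. A 5' start is a set of sequences with the same first 16 nt, and its main form is the one with the highest mean RPM. The 18 nt form of miR-34-5p had 605 RPM at 30 d and 16.2 RPM at 3 d, and the log2 ratio was 5.14 (5.09 to 5.37). The intervals are of the raw counts without the added 1 RPM, so a ratio of a sequence with few reads can lie below its interval. The 19 nt form of miR-957-3p had 73.4 RPM at 30 d and 2.67 RPM at 3 d, and the log2 ratio was 4.34 (4.44 to 5.15). miR-34-3p, the strand opposite to miR-34-5p, supplied 2 of the 10. Its 19 nt form had 32.8 RPM at 30 d and 1.20 RPM at 3 d, and its 21 nt form had 18.8 RPM at 30 d and 1.39 RPM at 3 d. Both forms were near the limit of what was compared, while the miR-34-5p form was not. The 19 nt form of miR-316-5p had 142 RPM at 30 d and 10.2 RPM at 3 d, and the log2 ratio was 3.68 (3.62 to 3.98). The 20 nt form of miR-277-3p had 1246 RPM at 30 d and 138 RPM at 3 d, and the log2 ratio was 3.16 (3.12 to 3.22). The other forms of the 10 were of 19 nt except the last. They were miR-33-5p, a regulator of lipid metabolism, at 2.96, miR-956-3p at 2.78, miR-305-5p, a regulator of intestinal stem cells, at 2.63, and the 21 nt form of the muscle arm miR-1-3p at 2.74. The last begins 2 nt before the start of that arm that was most abundant here. Of these other forms, that of miR-33-5p depended most on the added value. Its log2 ratio was 3.45 with 0.1 RPM added and 1.93 with 5 RPM added.

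With Ago2, 9 of these 10 forms had a log2 ratio above 0, as had 189 of the 255 sequences that averaged 10 RPM or more with both proteins. The 18 nt form of miR-34-5p had 446 RPM at 30 d and 29.9 RPM at 3 d with Ago2, and the 19 nt form of miR-956-3p had 50.1 RPM at 30 d and 3.93 RPM at 3 d. The 20 nt form of miR-277-3p was the exception among the 10, with 131 RPM at 30 d and 143 RPM at 3 d with Ago2. Of those 255, 33 were at least 2-fold higher at 30 d with Ago1, and 21 of these 33 were so with Ago2 too, against 71 of all 255 (27.8%) with Ago2. Of 20 that were at least 2-fold lower at 30 d with Ago1, 3 were so with Ago2, against 13 of all 255 (5.1%). The median log2 ratio of the 255 was 0.46 with Ago2.

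The ratio depended on where the 3' end lay within a 5' start. At the most abundant start of each arm, the 48 forms that were 2 nt shorter than the main form had a median log2 ratio of 0.74, and at 30 d 21 of them were higher by 2-fold or more and 2 lower. The 26 forms that were 3 nt shorter had a median of 0.85, with 10 higher and 1 lower. Forms 1 nt shorter had a median of 0.13 over 73 sequences. The 124 main forms had a median of -0.15, with 7 higher and 15 lower. The 55 forms 1 nt longer than the main form had a median of -0.09, and the 16 forms at least 3 nt longer had a median of -0.83, with 0 higher and 5 lower. With Ago2, the forms 2 nt and 3 nt shorter had medians of 0.47 and 0.62, and the main forms 0.04. With Ago2 the longer forms also had medians above that of the main forms, at 0.22, 0.32 and 0.13 for forms 1 nt, 2 nt and at least 3 nt longer. By the last base, 12 of 40 shorter forms ending in C were at least 2-fold higher at 30 d, as were 14 of 46 ending in G, 14 of 52 ending in T and 7 of 31 ending in A.

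**Figure D2:**
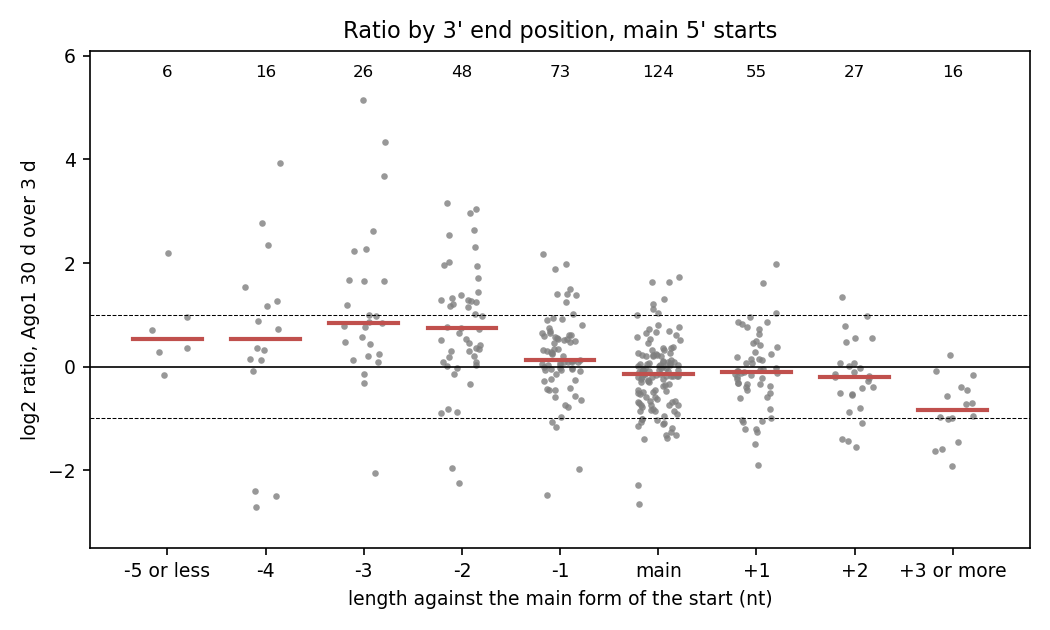
Log2 ratio of Ago1 30 d over 3 d (vertical axis) for 391 sequences at the most abundant start of their arm, by length against the main form of the start in nt (horizontal axis); red bars are medians, dashed lines mark 2-fold, and the numbers above are sequences. Medians lie at 0.74 and 0.85 for forms 2 nt and 3 nt shorter, and at -0.83 for forms at least 3 nt longer.

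As shares of all listed reads, forms shorter than the main form of their start made up 22.4% at 30 d and 17.7% at 3 d. Main forms made up 73.4% at 30 d and 75.4% at 3 d, and longer forms 4.16% at 30 d and 6.89% at 3 d. With Ago2, the shorter forms made up 14.6% at 30 d and 8.59% at 3 d. By length alone, reads of 21 nt made up 12.3% at 30 d and 9.15% at 3 d, and reads of 20 nt 4.53% at 30 d and 3.75% at 3 d. Reads of 24 nt held 3.23% at 30 d and 4.45% at 3 d, and reads of 23 nt 38.6% at 30 d and 40.7% at 3 d. The 22 nt reads, the largest class in the 30 d library as in the 3 d library, were near equal at 40.3% at 30 d and 41.1% at 3 d. The mean read length was 22.21 nt at 30 d and 22.32 nt at 3 d with Ago1, and 22.94 nt at 30 d and 23.07 nt at 3 d with Ago2.

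Mean lengths were then compared within each of 101 starts that had a mean of at least 100 RPM over both Ago1 libraries. The mean length was lower at 30 d in 86 starts and higher in 15, with a median difference of -0.08 nt (30 d minus 3 d). It was at least 0.25 nt lower in 17 starts (16.8%) and at least 0.25 nt higher in 3 (2.97%). With Ago2, 89 of the 101 starts were shorter at 30 d, with a median of -0.10 nt, and 79 starts were shorter at 30 d with both proteins. All 17 starts at least 0.25 nt shorter with Ago1 were shorter at 30 d with Ago2, 10 of them by 0.25 nt or more. Some of these Ago2 lengths rest on few reads, such as miR-987-5p with 160 reads at 30 d and 54 reads at 3 d. The 17 are not all separate, since they include the main and a downstream start of miR-277-3p and both strands of miR-34 and of miR-305.

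**Figure D3:**
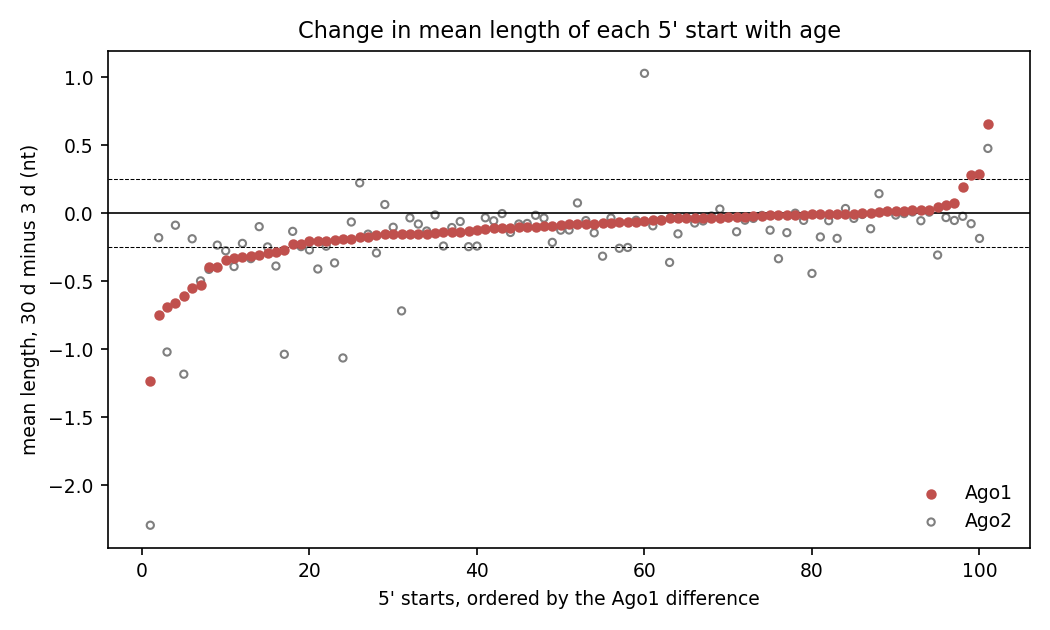
Difference in mean length, 30 d minus 3 d in nt (vertical axis), for 101 starts ordered by their Ago1 value (horizontal axis); filled points are Ago1, open points are Ago2, and dashed lines mark 0.25 nt. Ago1 values lie below 0 in 86 starts, and miR-34-5p is lowest at -1.23 nt.

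The largest difference belonged to miR-34-5p, which is needed for long life and for keeping the ageing brain intact. Its mean length was 20.94 nt at 30 d and 22.16 nt at 3 d, a difference of -1.23 nt. With Ago2 it was 18.72 nt at 30 d and 21.01 nt at 3 d. Its forms nest, and differ only at the 3' end. Below, the bases from position 18 onward are in capitals.
miR-34-5p, 24 nt: tggcagtgtggttagctGGTTGTG
miR-34-5p, 23 nt: tggcagtgtggttagctGGTTGT
miR-34-5p, 22 nt: tggcagtgtggttagctGGTTG
miR-34-5p, 21 nt: tggcagtgtggttagctGGTT
miR-34-5p, 18 nt: tggcagtgtggttagctG
The 24 nt form held 3.30% of the reads of the start at 30 d and 19.02% at 3 d, the 23 nt form 7.60% at 30 d and 20.6% at 3 d, and the 22 nt form 11.0% at 30 d and 19.4% at 3 d. The 21 nt form held 62.7% (62.4% to 63.0%) at 30 d and 38.5% (38.2% to 38.9%) at 3 d. The 18 nt form held 12.5% at 30 d and 0.639% at 3 d, while the 20 nt form between them held only 1.83% at 30 d and 0.747% at 3 d. The profile at 3 d was thus spread almost evenly over 22 to 24 nt beside the 21 nt form, and at 30 d it had its peaks at 21 nt and 18 nt. With Ago2, the 18 nt form held 81.5% of the reads at 30 d. As a whole the start had 4850 RPM at 30 d and 2533 RPM at 3 d with Ago1, and the 24 nt form was lower at 30 d in level too (160 RPM at 30 d and 482 RPM at 3 d).

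miR-277-3p comes from the same cluster and differed in length mainly by its last base. The capitals mark the bases from position 19 onward.
miR-277-3p, 23 nt: taaatgcactatctggtaCGACA
miR-277-3p, 22 nt: taaatgcactatctggtaCGAC
miR-277-3p, 21 nt: taaatgcactatctggtaCGA
miR-277-3p, 20 nt: taaatgcactatctggtaCG
The 23 nt form, which ends in one more A, held 10.3% of the reads of the start at 30 d and 38.1% at 3 d. The 22 nt form held 85.2% at 30 d and 61.0% at 3 d. The 21 nt form held 2.78% at 30 d and 0.698% at 3 d, and the 20 nt form 1.54% at 30 d and 0.169% at 3 d. The whole start was near equal, with 80767 RPM at 30 d and 81830 RPM at 3 d, so the difference lay in the end form and not in the level of the start. Its less abundant starts showed the same 2 ends. At the start 2 nt downstream, the form with the same end as the 23 nt form held 19.8% at 30 d and 54.3% at 3 d, the largest loss of all 1046 end forms. The form with the same end as the 22 nt form held 75.4% there at 30 d and 45.0% at 3 d, the largest gain of all. At the start 1 nt downstream, the corresponding shares were 9.47% at 30 d and 28.8% at 3 d for the longer end, and 87.6% at 30 d and 70.6% at 3 d for the shorter end. These 3 starts come from the same hairpin and library, so they are not separate observations of an age difference.

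The other members of that cluster were also shorter at 30 d. miR-317-3p had a mean length of 22.04 nt at 30 d and 22.59 nt at 3 d. Its 24 nt form held 22.8% at 30 d and 38.3% at 3 d, and its 21 nt form 43.0% at 30 d and 30.7% at 3 d, so the most abundant length was 21 nt at 30 d and 24 nt at 3 d. miR-34-3p had a mean length of 22.36 nt at 30 d and 22.97 nt at 3 d. Its 23 nt form held 79.6% at 30 d and 98.0% at 3 d, and its 19 nt form 10.1% at 30 d and 0.239% at 3 d. Both strands of the miR-34 hairpin thus had a short form at 30 d that was nearly missing at 3 d. In all, the 4 arms of the cluster with a start past 100 RPM were shorter by 0.33 to 1.23 nt, each past 0.25 nt.

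Other starts with large differences kept to a small number of end positions. miR-1010-3p, made from an intron without Drosha cleavage and so called a mirtron, had a mean length of 21.86 nt at 30 d and 22.60 nt at 3 d. Its 24 nt form held 20.1% at 30 d and 45.1% at 3 d, and its 21 nt form 55.4% at 30 d and 31.4% at 3 d. With Ago2 the 24 nt form dominated at each age, with 77.0% at 30 d and 82.7% at 3 d. miR-305-3p had 34.2% of its reads at 23 nt at 30 d and 55.1% at 3 d, and 25.8% at 21 nt at 30 d and 9.22% at 3 d. miR-305-5p, its partner strand, had a mean length of 21.34 nt at 30 d and 22.03 nt at 3 d, with its 24 nt form at 5.96% at 30 d and 15.2% at 3 d. Both strands of this hairpin were thus shorter at 30 d, as both strands of miR-34 were.

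miR-316-5p had 34.0% of its reads at 22 nt at 30 d and 58.5% at 3 d, 50.3% at 21 nt at 30 d and 38.9% at 3 d, and 14.1% at 19 nt at 30 d and 1.12% at 3 d. The 20 nt form stayed below 1% at each age (0.795% at 30 d and 0.578% at 3 d), so the short form stood apart from the longer ones, as in miR-34-5p. miR-957-3p had 68.2% of its reads at 22 nt at 30 d and 86.4% at 3 d, and 22.5% at 21 nt at 30 d and 12.4% at 3 d. In this arm 20 nt and 19 nt forms were graded, with 5.63% and 3.22% at 30 d, against 0.765% and 0.0813% at 3 d. miR-1000-5p, a neuronal miRNA that limits the vesicular glutamate transporter, had 70.8% at 20 nt at 30 d and 44.0% at 3 d, and 20.1% at 21 nt at 30 d and 41.2% at 3 d. The start lettered A, which has no name, had 18.1% of its reads at 26 nt at 30 d and 47.4% at 3 d, and 37.8% at 24 nt at 30 d and 18.6% at 3 d.

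**Figure D4:**
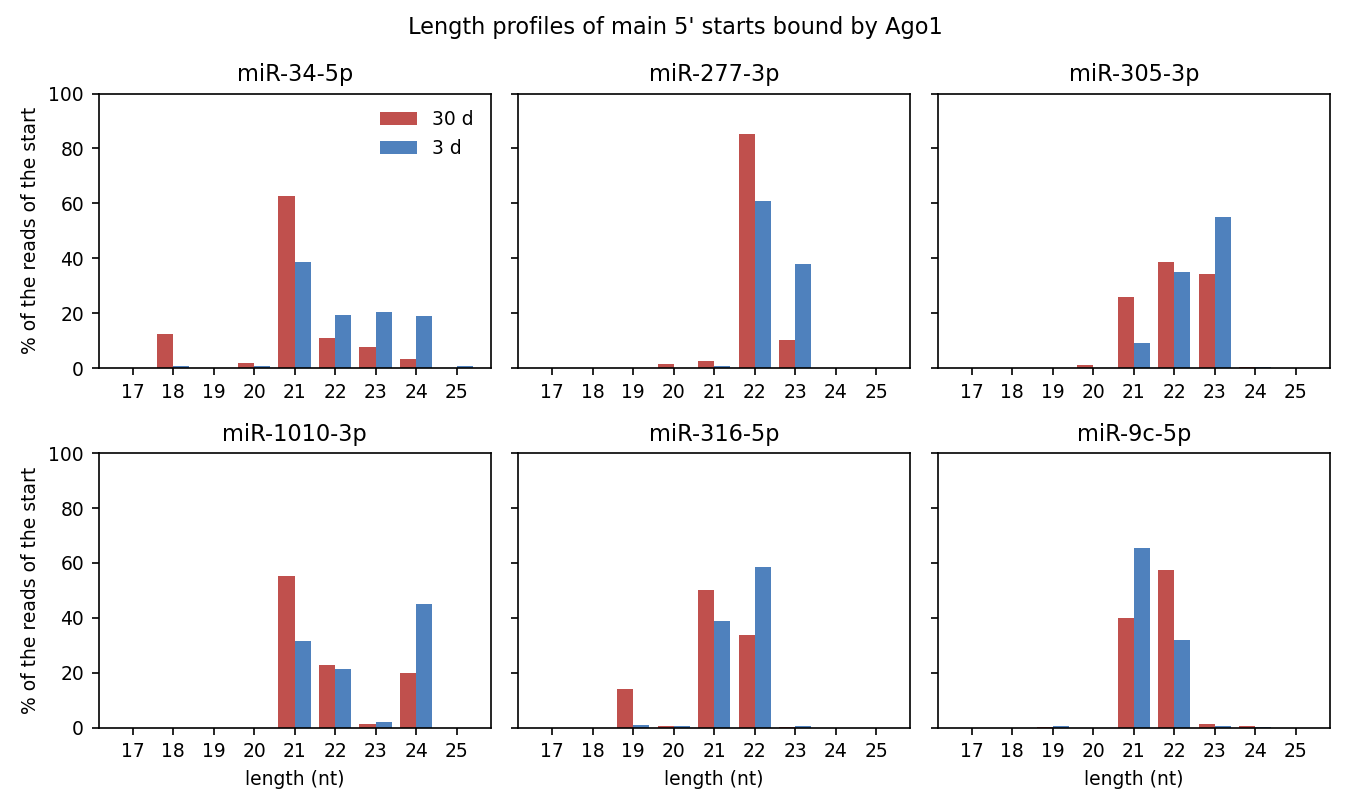
Share of the reads of the most abundant start (vertical axis, %) by length in nt (horizontal axis) for 6 arms bound by Ago1, with 30 d in red and 3 d in blue; forms under 0.5% at both ages are not drawn and there are no error bars, since each bar is 1 library. miR-34-5p and miR-316-5p have a separate short form at 30 d, with 12.5% at 18 nt and 14.1% at 19 nt, and miR-9c-5p is shifted the other way.

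The 3 starts that were longer at 30 d by 0.25 nt or more included 2 of the miR-9 family. miR-9b-5p had a mean length of 22.37 nt at 30 d and 21.71 nt at 3 d. Its 20 nt form held 4.12% at 30 d and 22.9% at 3 d, and its 23 nt form 32.7% at 30 d and 16.2% at 3 d. This start was just past the minimum, with 100.1 RPM at 30 d and 101.7 RPM at 3 d. miR-9c-5p had a mean length of 21.59 nt at 30 d and 21.31 nt at 3 d. Its main forms differ by the last A, with the bases from position 21 in capitals.
miR-9c-5p, 22 nt: tctttggtattctagctgtaGA
miR-9c-5p, 21 nt: tctttggtattctagctgtaG
The 22 nt form held 57.5% at 30 d and 31.8% at 3 d, and the 21 nt form 39.9% at 30 d and 65.6% at 3 d. miR-9a-5p, which limits the number of sensory organ precursors, came next in order, with 22.64 nt at 30 d and 22.45 nt at 3 d. The order of the miR-9c-5p ends at 30 d and 3 d was therefore the reverse of that of miR-277-3p, where the form with the additional A was lower at 30 d. With Ago2, miR-9c-5p and miR-9a-5p differed by -0.08 and -0.02 nt, and miR-9b-5p had only 44 reads at 30 d and 25 reads at 3 d. The third start was miR-982-5p, an X-linked miRNA of the testis, with 23.22 nt at 30 d and 22.93 nt at 3 d. The next 6 starts in order were longer at 30 d by 0.07 nt or less, namely miR-92a-3p, miR-275-3p 2 nt downstream, miR-970-3p, miR-14-5p, miR-33-5p and miR-2b-3p 1 nt downstream.

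Counted over all 1046 end forms of the 101 starts, 48 (4.59%) gained at least 5 percentage points of the reads of their start at 30 d and 58 (5.54%) lost as much. These forms lay in 55 starts. Of the gaining forms, 26 were shorter than the main form, 18 were main forms and 4 were longer. Of the losing forms, 1 was shorter, 33 were main forms and 24 were longer. The shares of a start sum to 100%, so a gain and a loss in the same start are not separate. The share of shorter forms was larger at 30 d in 85 of the 101 starts, with a median of 13.01% at 30 d and 8.53% at 3 d. The share of longer forms was smaller at 30 d in 54 starts, with a median of 2.88% at 30 d and 2.83% at 3 d. In 91 starts the same form was the most abundant at each age. In the other 10 the most abundant length was shorter at 30 d in 8, and longer in miR-9c-5p and miR-982-5p.

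Several abundant arms showed the same order by smaller amounts. The 23 nt form of bantam-3p held 56.9% of its start at 30 d and 70.1% at 3 d. In the muscle arm miR-133-3p, the 22 nt form held 73.1% at 30 d and 88.6% at 3 d. miR-276a-3p, which tunes a dopamine receptor in olfactory memory, had 75.7% at 22 nt at 30 d and 88.8% at 3 d. The 23 nt form of miR-8-3p held 86.0% at 30 d and 91.9% at 3 d. These 4 were chosen for their abundance or function after their values had been seen. By contrast, let-7-5p had a mean length of 21.04 nt at 30 d and 21.05 nt at 3 d, and miR-33-5p 21.09 nt at 30 d and 21.06 nt at 3 d.

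The sequences that were lowest at 30 d differed from those that were highest, in that 7 of the 10 began 1 to 3 nt downstream of the most abundant start of their arm. The main and downstream forms of 3 arms and miR-956-3p are shown with their seeds in capitals, since the shift gives the downstream form another seed.
miR-277-3p, main start: tAAATGCActatctggtacgac
miR-277-3p, 1 nt downstream: aAATGCACtatctggtacgaca
miR-276a-3p, main start: tAGGAACTtcataccgtgctct
miR-276a-3p, 1 nt downstream: aGGAACTTcataccgtgctct
miR-2b-3p, main start: tATCACAGccagctttgaggag
miR-2b-3p, 1 nt downstream: aTCACAGCcagctttgaggag
miR-956-3p, main start: tTTCGAGAccactctaatccatt
miR-956-3p, 1 nt downstream: tTCGAGACcactctaatccatt
The 22 nt form of miR-277-3p that starts 1 nt downstream had the lowest ratio of all 529 sequences. It had 61.9 RPM at 30 d and 785 RPM at 3 d, and the log2 ratio was -3.64 (-3.74 to -3.59). This form also ends in 1 more A than the main form shown, so the pair differs at both ends. At the main start, the 23 nt form with that end had 8295 RPM at 30 d and 31170 RPM at 3 d. The 21 nt form 1 nt downstream, with the same end as the main form shown, had 572 RPM at 30 d and 1924 RPM at 3 d. Its log2 ratio was -1.75. The corresponding 21 nt form of miR-276a-3p had 11.6 RPM at 30 d and 85.9 RPM at 3 d, and its log2 ratio was -2.78. The 21 nt form of miR-2b-3p 1 nt downstream had 35.6 RPM at 30 d and 230 RPM at 3 d, and its log2 ratio was -2.66. miR-2b-3p is of the K box family, named after a motif in the mRNAs of Notch target genes. Forms 1 nt downstream of miR-312-3p (1 form) and miR-311-3p (2 forms) had ratios of -2.58 to -2.56, and the form 3 nt downstream of miR-375-3p had -3.13 with 2.57 RPM at 30 d and 30.2 RPM at 3 d. The remaining 3 of the 10 began at the most abundant start. They were the 19 nt forms of miR-982-5p and miR-993-3p, at -2.71 and -2.49, and the 22 nt main form of the unnamed arm G, with 23.5 RPM at 30 d and 152 RPM at 3 d.

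Over all 117 sequences at a downstream start, 1 was higher by 2-fold or more at 30 d and 28 were lower by as much, with a median log2 ratio of -0.17. Sequences at the most abundant start numbered 391, with 58 higher and 42 lower. Of the 65 sequences exactly 1 nt downstream, 18 were lower, and they differed by their first base. This split was made after the values had been seen. The 33 that began with A came from 15 named arms and from unnamed ones, and 17 were lower and 0 higher, with a median of -1.08. The 17 that began with T had a median of 0.26, with 0 lower and 1 higher. The 9 that began with G had a median of -0.89 and the 6 that began with C a median of -0.15. With Ago2, the medians of those that began with A and with T were -0.0045 and 0.07. The sequences were chosen by their Ago1 level, and several that began with A were near the floor with Ago2. That of miR-2b-3p had 0.463 RPM at 30 d and 0.889 RPM at 3 d, where the added 1 RPM draws a ratio towards none. Better covered ones were mixed with Ago2, with miR-277-3p at -0.72, miR-11-3p at -0.62, miR-8-3p at 0.06 and miR-263a-5p at 0.28. Forms of an arm have their start in common, so these counts hold fewer separate starts than sequences.

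**Figure D5:**
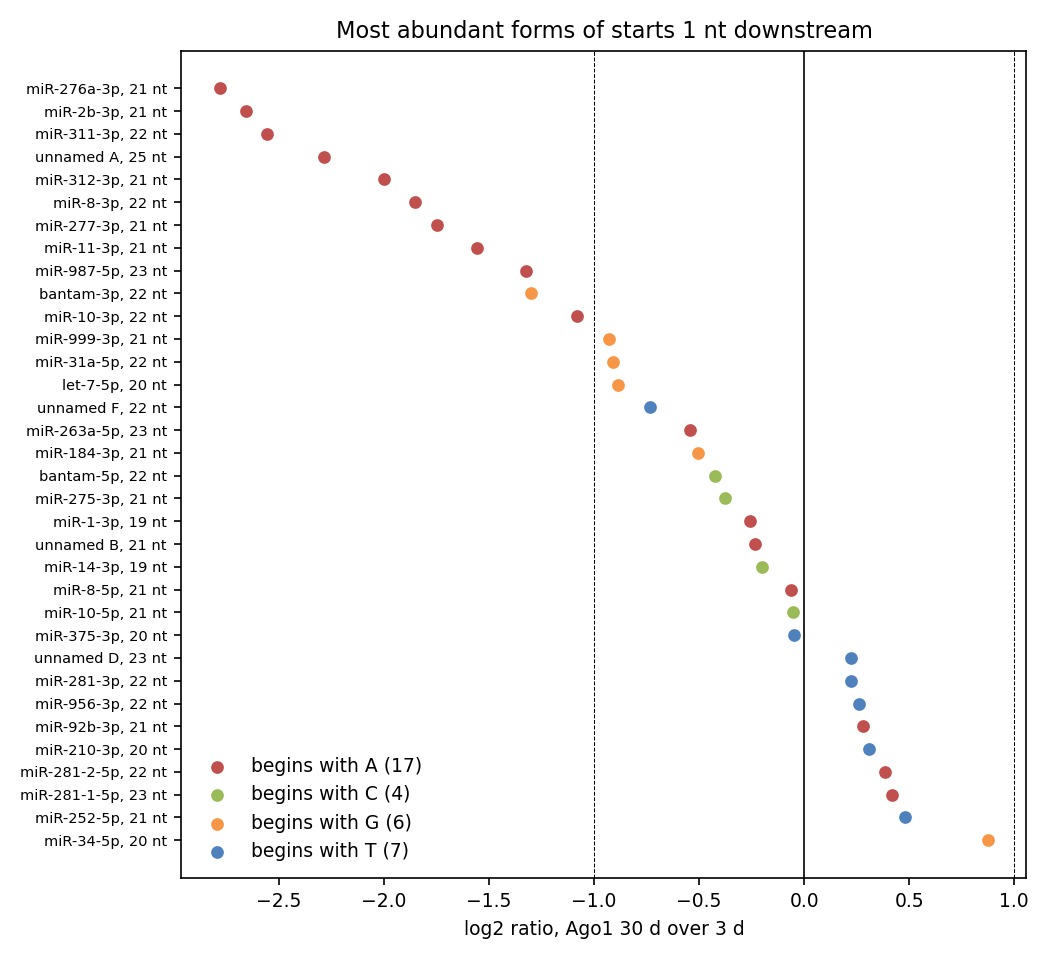
Log2 ratio of Ago1 30 d over 3 d (horizontal axis) for the most abundant form of 34 starts that lie 1 nt downstream of the main start of their arm (rows), coloured by first base; the dashed lines mark 2-fold. The 9 lowest all begin with A and lie at or below -1.32, and the 7 that begin with T lie between -0.73 and 0.48.

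Taken within an arm, the share of reads that began 1 nt downstream was lower at 30 d in 62 and higher in 20 of the 82 arms that averaged 100 RPM or more, with a median of 0.342% at 30 d and 0.447% at 3 d. In all 13 arms whose main start begins with T followed by A it was lower at 30 d. Its median there was 0.666% at 30 d and 3.21% at 3 d. It was also lower in 11 of 13 arms with T then G and 10 of 12 with T then C. With T then T it was lower in 8 of 10. Their medians in this order were 0.315%, 0.198% and 0.266% at 30 d, and 0.372%, 0.306% and 0.295% at 3 d. This grouping follows the first-base split above, made after the values had been seen. Some of the 13 arms with T then A have the same seed, such as miR-276a-3p and miR-276b-3p, so they are not separate cases. With Ago2, 9 of the 13 arms with T then A were lower at 30 d. Their Ago2 median was 0.582% at 30 d and 1.28% at 3 d. Over all 82 arms, 40 were lower at 30 d with Ago2, with a median of 0.570% at 30 d and 0.669% at 3 d. Arms with no such read in the shallower Ago2 library of 3 d, such as miR-2a-3p and miR-9a-5p, could not be lower at 30 d. The Ago1 and Ago2 counts of arms are therefore not directly comparable. In miR-277-3p the share was 0.801% at 30 d and 3.21% at 3 d, and in miR-2b-3p 0.666% at 30 d and 3.92% at 3 d. In miR-8-3p it was 0.681% at 30 d and 2.83% at 3 d, and in miR-13b-3p, also of the K box family, 0.568% at 30 d and 3.86% at 3 d. miR-11-3p, which begins with C followed by A and keeps cell death genes in check, had 2.48% at 30 d and 5.24% at 3 d. The largest difference in points was in miR-210-3p, a miRNA of photoreceptors, with 13.1% at 30 d and 20.2% at 3 d, and its main start begins with C followed by T. In level, its start 1 nt downstream was higher at 30 d, with 1444 RPM at 30 d and 1204 RPM at 3 d. Its share was lower because the main start differed more, with 9590 RPM at 30 d and 4746 RPM at 3 d.

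miR-956-3p went the other way, with 22.7% at 30 d and 20.7% at 3 d 1 nt downstream. It supplies most downstream reads of either library, so the share over all reads was 5.04% at 30 d and 4.79% at 3 d, and without this arm it was 0.613% at 30 d and 1.20% at 3 d. In miR-252-5p, the share 1 nt downstream was 5.92% at 30 d and 4.34% at 3 d, while its 20 nt form 2 nt downstream had 74.4 RPM at 30 d and 416 RPM at 3 d. That form was near equal with Ago2, with 93.3 RPM at 30 d and 77.8 RPM at 3 d.

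Summed over all sequences with the same bases 2 to 8, 90 seeds had a mean of at least 100 RPM. At 30 d, 2 of them (2.22%) were higher by 2-fold or more, and 6 (6.67%) were lower by as much. The higher ones were those of miR-33-5p, with 9501 RPM at 30 d and 3663 RPM at 3 d, and of miR-210-3p, with 9590 RPM at 30 d and 4746 RPM at 3 d. All 6 lower seeds were those of downstream starts. The seed of miR-2b-3p 1 nt downstream had 44.6 RPM at 30 d and 277 RPM at 3 d, and that of miR-277-3p 1 nt downstream had 654 RPM at 30 d and 2726 RPM at 3 d. The seed of miR-11-3p 1 nt downstream had 335 RPM at 30 d and 901 RPM at 3 d. miR-8-3p supplied 2 of the 6, from starts 1 nt and 4 nt downstream, and miR-252-5p the last, 2 nt downstream. Among these 90 seeds, none of a main start was at least 2-fold lower, and less abundant seeds were not counted.

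Lists of arms by known role were counted by the main form of each arm. A list ratio thus depends both on the level of the start and on the share of that end form. Over all 124 main forms at a main start, 7 (5.65%) were at least 2-fold higher at 30 d and 15 (12.1%) lower, with a median log2 ratio of -0.15. Over all 101 starts, 86 (85.1%) were shorter at 30 d and 16.8% by 0.25 nt or more. Of 8 arms known for ageing and lifespan, 2 were at least 2-fold higher at 30 d and 0 lower, with a median of 0.39. The higher ones were the 21 nt form of miR-34-5p, with 3041 RPM at 30 d and 976 RPM at 3 d, and the 20 nt form of miR-1000-5p, with 216 RPM at 30 d and 93.2 RPM at 3 d. In these 2 arms the form differed more than the start, since their whole starts had log2 ratios of 0.94 and 0.52. The others were miR-305-5p at 0.68, miR-277-3p at 0.46, miR-14-3p at 0.04 and the let-7 complex. The whole starts of miR-305-5p, miR-277-3p and miR-14-3p had 0.36, -0.02 and -0.09. Starts of all 8 arms were shorter at 30 d, as were 85.1% of all starts, and 4 of them passed 0.25 nt. let-7-5p, a timer of metamorphosis, and its cluster partner miR-125-5p had ratios of -0.20 and -0.06, and miR-100-5p, the third of that complex, 0.32. Of the 7 arms listed as shortened by Nibbler, 6 passed the minimum. All 6 were shorter at 30 d, a share near that of all starts, with a median of -0.18 nt against -0.08 nt over all starts, and miR-34-5p and miR-305-5p passed 0.25 nt. The main forms of the other 4 had log2 ratios of -0.58 for miR-263a-5p, -0.58 for miR-11-3p, 0.21 for miR-10-5p and 0.32 for miR-100-5p. miR-7-5p was below the minimum.

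Of 7 arms with roles in fat body, gut and insulin signalling, 1 was higher, the 21 nt form of miR-33-5p, with 8308 RPM at 30 d and 3355 RPM at 3 d. The others were miR-8-3p at 0.22, miR-14-3p at 0.04, miR-275-3p at -0.18, miR-278-3p at 0.80, miR-277-3p and miR-305-5p. In the nervous system list, 4 of 6 arms passed the minimum, with 2 higher and 0 lower. The main form of miR-210-3p had 9172 RPM at 30 d and 4258 RPM at 3 d, and miR-1000-5p is given above. The other 2 that passed the minimum were miR-137-3p at 0.53 and miR-932-5p at -0.49. miR-124-3p and miR-219-5p were below the minimum. Of the 2 muscle arms, the main form of miR-133-3p was at the limit with a ratio of -1.002, with 1062 RPM at 30 d and 2128 RPM at 3 d. The whole start of miR-133-3p had -0.73, within 2-fold. The main form of miR-1-3p had -0.20. This form of miR-1-3p begins 2 nt downstream of the usual start of the arm, and that start was higher at 30 d by 0.85 on the log2 scale, with 226 RPM against 125 RPM at 3 d. None of the 4 K box arms that passed the minimum was past 2-fold, and their median was -0.30, with miR-11-3p at -0.58, miR-2a-3p at -0.54, miR-2b-3p at -0.06 and miR-13b-3p at -0.02. miR-2a-3p and miR-2b-3p have the same first 16 nt, as have miR-13a-3p and miR-13b-3p, so each pair has a joint mean length, and short forms can belong to either.

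Among 5 sensory organ arms, the 20 nt form of miR-996-3p was higher, with 257 RPM at 30 d and 82.0 RPM at 3 d, and the 21 nt form of miR-263b-5p lower, with 11.0 RPM at 30 d and 30.4 RPM at 3 d. miR-279-3p has the same seed as miR-996-3p, and its main form had 381 RPM at 30 d and 400 RPM at 3 d. miR-9a-5p and miR-263a-5p, also of this list, had ratios of 0.35 and -0.58. The mirtrons miR-1006-3p and miR-1012-3p had ratios of -0.08 each and miR-1010-3p had 0.99, with 0 of 3 past 2-fold. The whole start of miR-1010-3p had 0.17, so its form differed more than its start. Of 19 arms from testis clusters, 11 passed the minimum, with 0 higher and 3 lower, a median of -0.68 and a range of -1.14 to -0.02. The lower ones were miR-982-5p, miR-963-5p and miR-960-5p, with 229, 17.6 and 51.5 RPM at 30 d, against 507, 38.3 and 105.6 RPM at 3 d. The whole start of miR-982-5p had -0.86, within 2-fold. The other 8 were miR-962-5p at -0.85, miR-984-5p at -0.84, miR-974-5p at -0.68, miR-976-3p at -0.53, miR-959-3p at -0.51, miR-961-5p at -0.47, miR-972-3p at -0.17 and miR-964-5p at -0.02. Summed over all forms of the testis arms and not only the main forms, the level was 1023 RPM at 30 d and 1820 RPM at 3 d. Most of this sum came from miR-982-5p, whose forms together had 618 RPM at 30 d and 1123 RPM at 3 d. In whole flies, fewer cells of a type and less RNA per cell cannot be told apart. Of 10 arms of the early embryo and ovary, 4 passed the minimum, and miR-286-3p was higher, with 48.5 RPM at 30 d against 23.1 RPM at 3 d. The others were miR-312-3p at 0.26, miR-311-3p at -0.18 and miR-310-3p at -0.30. In the cluster list of miR-34 the main form of miR-277-5p was lower, with 27.4 RPM at 30 d and 67.3 RPM at 3 d, and those of miR-34-3p and miR-317-3p had ratios of -0.92 and 0.66. The whole starts of miR-34-3p and miR-317-3p had -0.63 and 0.17.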

How the data were processed

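Small RNAs from Ago1 and Ago2 immunoprecipitates of whole male flies at 30 d and 3 d were sequenced after TruSeq small RNA library preparation, with 1 library per group. The build dm3, CASAVA 1.8.2 and Bowtie, with no version, are named per the submitters' processing notes. The sources used here give no adapter trimming, alignment setting or read filter. The authors deposited raw read counts, as whole numbers, for each distinct sequence of 16 to 44 nt. Sequences listed several times (up to 5, always with equal counts) were counted once, and held 0.856% of the Ago1 reads at 30 d and 0.923% at 3 d. Counts were divided by the listed reads of the library (RPM), and log2 ratios used a pseudocount of 1 RPM over sequences that averaged 10 RPM or more over the Ago1 libraries. Mean lengths and end forms used 5' starts (first 16 nt) with a mean of at least 100 RPM. Arms were built by exact overlap over 14 nt or more, allowing shifts of up to 8 nt at the 5' end and up to 10 nt at the 3' end.

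Names of 133 arms were recalled, because no table used here pairs sequences with names. All 133 have a gene and an annotated strand on that side in the annotation held here, 75 with the length of the main form and 111 within 1 nt. The annotation is of a later build than dm3, so it served for names and chromosomes and no coordinates are given. No genome or hairpin sequence was used here, so untemplated 3' tails could not be told from genomic ends, and unnamed arms were not checked for a hairpin.

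The text names the 10 most abundant, 10 highest and 10 lowest sequences, the 10 largest and 10 smallest mean length differences, the 10 largest gains and losses of end forms, and the members of 12 lists that passed the minimum, by their main form. Thresholds were 2-fold, 5 percentage points and 0.25 nt. The comparison, the lists and these rules were chosen with earlier results of these data known. Ratios have exact conditional binomial intervals and shares Wilson intervals. Alternatives were other scalings (edgeR 4.0.16 TMM factors, DESeq2 1.42.0 size factors), minimums, pseudocounts and start lengths. The code was tested on simulated data and run with Python 3.11.15, scipy 1.17.1 and R 4.3.3.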

Additional observations from a re-analysis of the deposited data

Results flagged for a closer look

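The 21 nt form of miR-34-5p took a larger share of its 5' start at 30 d with Ago1 and a smaller one with Ago2. The share differed by 24.2 percentage points (30 d minus 3 d) with Ago1, being 62.7% at 30 d and 38.5% at 3 d. With Ago2 it differed by -10.4 points, being 5.45% at 30 d and 15.8% at 3 d. In level the form was higher at 30 d with both proteins, with 3041 RPM at 30 d and 976 RPM at 3 d with Ago1, and 29.8 RPM at 30 d and 14.7 RPM at 3 d with Ago2. Each value is from 1 library, and the difference between the proteins was not tested.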

How the results depend on the processing

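At the settings used, 131 sequences were at least 2-fold apart, and the count was 96 to 139 under 7 alternatives (3 other scalings, pseudocounts of 0.1 and 5 RPM, every listed line counted, only 20 to 24 nt). It was 250 of 1182 sequences with a minimum of 1 RPM and 43 of 216 with 100 RPM. The median log2 ratio was -0.0347 with TMM factors, 0 with the median of ratios, 0.0162 with a total without the 10 most abundant sequences, -0.0495 and 0.08 with minimums of 1 and 100 RPM, and -0.0366 with only 20 to 24 nt. End forms past 5 points numbered 106, and 165 with starts from 30 RPM; starts past 0.25 nt numbered 20, and 34 with starts from 30 RPM. Of these 34, 28 were shorter at 30 d. The mean read length differed by -0.104 nt, and by -0.259 nt without the 10 most abundant sequences. The share of reads 1 nt downstream differed by 0.251 points, and by -0.588 points without miR-956-3p, a setting added after seeing the data. Of 75 named sequences, 32 were past 2-fold, and 28 to 32 of these remained so with the same sign under 6 alternatives. The share of untemplated 3' tails was not run, since no hairpin sequence was used here. No paired analysis was possible because each group has 1 library. Depth limits values near 10 RPM, which rest on about 265 reads, and counting intervals leave out the spread between flies and between library preparations.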

Other observations

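Of 255 sequences with a mean of at least 10 RPM with each protein, 20 were at least 2-fold lower at 30 d with Ago1. Among these 20, 3 were at least 2-fold higher at 30 d with Ago2, against 71 of all 255 (27.8%). The 3 are given here without a reading of their number, and were chosen after their values had been seen. The 19 nt form of miR-8-3p that begins 4 nt downstream had 491 RPM at 30 d and 1884 RPM at 3 d with Ago1, and 39.1 RPM at 30 d and 11.7 RPM at 3 d with Ago2. The 23 nt form of miR-263b-5p had 9.34 RPM at 30 d and 26.1 RPM at 3 d with Ago1, and 248 RPM at 30 d and 41.1 RPM at 3 d with Ago2. The 21 nt form of miR-263a-5p that begins 3 nt downstream had 5.86 RPM at 30 d and 15.8 RPM at 3 d with Ago1, and 149 RPM at 30 d and 71.5 RPM at 3 d with Ago2. None of the 33 that were at least 2-fold higher at 30 d with Ago1 was at least 2-fold lower with Ago2. Of all 255, 13 (5.1%) were lower by as much with Ago2. The difference between the proteins was not tested.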
